A study of Mus musculus with 20 samples.

Results

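The cell cycle and DNA replication genes described here are 41 genes named by symbol, from the D-type cyclins of G1 to the motor proteins of mitosis. Of these, 40 were read from the liver arrays, out of 18193 genes in all. Ccnb1 was not analysed here. The members are a list of gene names with no threshold on a measured value, drawn up with earlier results of these data known. Each gene was read from the probe set with the highest mean log2 value among the probe sets that named that gene alone.

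Livers of mice that carry or lack Scd1, the enzyme that makes monounsaturated fatty acids, were compared on 2 diets. The 4 groups were Scd1+/+ on chow, Scd1+/+ on a very low fat (VLF) diet, Scd1-/- on chow and Scd1-/- on the VLF diet, with 5 individual livers in each. The VLF diet is labelled TD03045, from Harlan Teklad. The labels name no strain, age, sex, time on the diet or tissue in which the knockout lacks Scd1. The numbers of the livers do not pair them across groups, and p-values rest on the spread between livers within groups, pooled over the 4 groups.

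A quiescent adult hepatocyte enters the cell cycle when D-type cyclins with CDK4 and CDK6, then cyclin E with CDK2, phosphorylate the RB family of pocket proteins and release E2F transcription factors. E2F targets load the MCM helicase onto origins, supply deoxynucleotides and copy DNA in S phase. Cyclin A2, cyclin B and CDK1 then drive G2 and mitosis, whose genes are switched by MuvB complexes with B-MYB and FOXM1. The adult liver rarely divides, but it re-enters the cycle after tissue loss or injury. In bulk liver RNA, more cells that express a gene and more RNA per cell cannot be told apart.

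The DNA before the start of 7 members is printed because these genes were among the risers of the replication, S/G2 and mitotic classes below and differ in which cell cycle motifs they hold. E2F sites were searched as TTTCCCGC, TTTGGCGC, TTTCGCGC or TTTGCCGC, the cell cycle homology region (CHR), which MuvB complexes bind, as TTTGAA or TTCGAA, and the NF-Y site as CCAAT. All were searched on both strands, so that CCAAT also reads ATTGG. RefSeq start regions (build GRCm38.p6) were on hand for 32 of the 41 members, and the 250 bases before each start were searched. The stretches below end at the base before the start and are written in the direction of the gene, with every match to any of the searched motifs in capitals.
Mcm5 (chr8:75109349-75109508, + strand): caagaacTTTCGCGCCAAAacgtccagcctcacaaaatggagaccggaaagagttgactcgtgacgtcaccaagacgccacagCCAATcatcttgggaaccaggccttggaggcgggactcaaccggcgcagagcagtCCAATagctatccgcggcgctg
Mcm6 (chr1:128359706-128359825, - strand): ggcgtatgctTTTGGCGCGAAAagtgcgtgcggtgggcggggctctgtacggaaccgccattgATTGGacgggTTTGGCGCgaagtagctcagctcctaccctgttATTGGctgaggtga
Rrm2 (chr12:24708174-24708253, + strand): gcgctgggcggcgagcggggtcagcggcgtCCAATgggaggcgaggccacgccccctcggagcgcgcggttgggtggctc
Top2a (chr11:99024190-99024379, - strand): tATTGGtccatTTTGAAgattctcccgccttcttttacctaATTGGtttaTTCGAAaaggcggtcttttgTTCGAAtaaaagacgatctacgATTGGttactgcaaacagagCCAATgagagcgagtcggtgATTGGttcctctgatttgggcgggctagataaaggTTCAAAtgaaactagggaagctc
Cdk1 (chr10:69352913-69353052, - strand): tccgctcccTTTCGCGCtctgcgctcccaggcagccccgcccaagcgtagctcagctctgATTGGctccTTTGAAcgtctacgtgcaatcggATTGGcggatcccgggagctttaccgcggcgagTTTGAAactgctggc
Ccnb2 (chr9:70421555-70421724, - strand): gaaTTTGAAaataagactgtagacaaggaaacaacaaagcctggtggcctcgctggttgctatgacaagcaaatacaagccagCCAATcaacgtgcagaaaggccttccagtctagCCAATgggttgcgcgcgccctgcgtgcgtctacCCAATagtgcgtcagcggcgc
Ube2c (chr2:164769829-164769928, + strand): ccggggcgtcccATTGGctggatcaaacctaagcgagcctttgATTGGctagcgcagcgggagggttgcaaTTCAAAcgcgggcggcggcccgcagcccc

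The replication genes Mcm5 and Mcm6 held E2F words, in each case with 2 words overlapping on opposite strands, while the mitotic genes Ccnb2 and Ube2c held CHR and CCAAT words and no E2F word. Cdk1 held both kinds. Over the members, an E2F word stood before the start of 5 of 32 genes (15.6%: Cdc6, Cdk1, Mcm5, Mcm6 and Mcm7), against 2.16% of all 27025 genes in the RefSeq table and 3.15% of the 14452 that the array reads. A CHR word stood in 11 of 32 (34.4%, against 19.6% and 15.7%), and a CCAAT word in 24 of 32 (75%, against 37.5% and 39.4%). All 11 members with a CHR word also held CCAAT, a pair found in 7.93% of all genes and 6.82% of those on the array. Of the 13 mitotic members with an entry, 6 held a CHR word and 0 an E2F word. A match describes these letters only, and a missing match says only that the letters are not in that window. A gene with several start entries counted once if any of them matched.

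Scd1 itself separated the genotypes in every liver, with 6515 to 10456 in wild-type chow livers, 16898 to 20409 in wild-type VLF livers, 29.2 to 58 in knockout chow livers and 27.2 to 37 in knockout VLF livers. All values are normalized intensities on a linear scale, floored at 16, beside deposited array medians of 32.2 to 36.6. The liver label was checked with 7 hepatocyte markers, among them Alb, Ttr and Apoa1, which were bright in every liver (sums of 100892 to 108001); Alb, Ttr and Apoa1 sit at the top of the scale that normalization sets, so the sum is no measure of the hepatocyte share. Intensities of different genes come from different probes and are not compared with each other.

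On the VLF diet, 28 of the 40 members rose in Scd1-/- livers over Scd1+/+ livers, 3 fell and 9 did not pass the test (limma, adjusted p under 0.05 over all probe sets). Helicase, S/G2 and mitotic genes made up most of the rise: all 7 of the MCM and PCNA class, 5 of 6 S/G2 genes and 13 of 14 mitotic genes. The G1 cyclins and the G1/S regulators behaved otherwise, with 1 riser, Cdt1, among 9 genes. The median member change was 0.73 on the log2 scale, beside -0.02 over all genes tested. This comparison moved much of the array: 42.1% of all genes were called, 19.2% up and 23% down. Members that rose at least 2-fold numbered 17 of 40, where 4.26% of all genes did so. In 24 members the 5 knockout livers lay wholly above the 5 wild-type livers, and in 2 wholly below, where 14.6% and 15.5% of all genes did so.

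**Figure D1:**
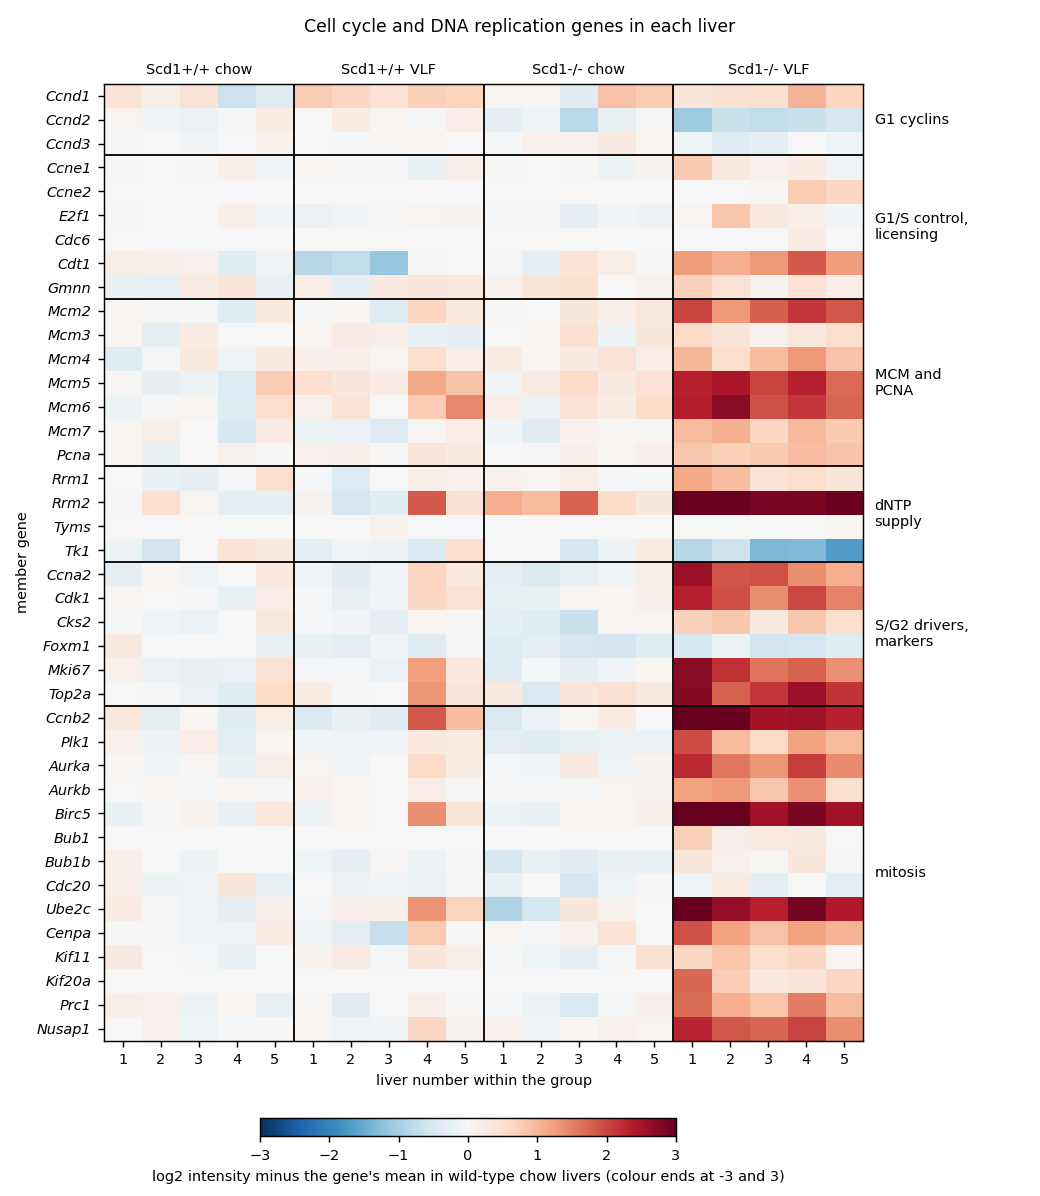
Each row is 1 of the 40 members and each column 1 liver; colour gives the log2 intensity minus the gene's mean in the 5 Scd1+/+ chow livers, with the colour scale ending at -3 and 3. The knockout livers on the VLF diet are red over most of the MCM, S/G2 and mitotic rows, wild-type VLF liver 4 is paler red over the same rows, and Ccnd2 and Tk1 are blue in knockout VLF livers.

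Markers of several cell types moved with these genes, in a comparison that called 42.1% of all genes, 19.2% up and 23% down. The shares called in the cholangiocyte, neutrophil and endothelial lists were near that of all genes. All 9 macrophage and Kupffer cell markers rose in the knockout on the VLF diet. Their summed intensity was 4119 to 4880 in wild-type and 14016 to 18656 in knockout VLF livers. The largest rises were Cd14 by 5.05 ± 0.30, Marco by 3.65 ± 0.39 and Cd68 by 2.32 ± 0.13 (log2 change ± standard error). The smallest were Adgre1 by 0.79 ± 0.16 and Clec4f by 0.66 ± 0.18. Clec4f read 699 to 829 in wild-type and 682 to 1778 in knockout VLF livers. Such sums follow their brightest probe sets: mean Cd14 went from 103 to 3864, and mean Dcn of the stellate list from 1733 to 3772. Of 8 neutrophil markers 3 rose, led by S100a8 (4.01) and S100a9 (3.16), Cxcr2 fell (-0.34) and 4 were not called; the sum was 412 to 489 in wild-type and 976 to 5133 in knockout VLF livers. Of 6 stellate cell markers 4 rose and Lrat fell (-0.51), with sums of 2226 to 2782 and 4399 to 5633. Leaving out single livers ended the calls of Acta2, a stellate riser (adjusted p up to 0.0656), Lrat (up to 0.0821) and Cxcr2 (up to 0.0922). Further, 2 of 5 cholangiocyte markers, Sox9 and Cldn4, rose (274 to 325 and 349 to 447). The Sox9 call was lost with a floor of 64 (0.18, adjusted p = 0.21). That floor also ended the calls of the stellate riser Col1a1 (0.33, limma adjusted p = 0.11) and the neutrophil riser Mmp8 (0.27, 0.162), among others. The endothelial sum overlapped between the groups (991 to 1261 and 1053 to 1739), with Lyve1 higher and Stab2 and Kdr lower. The lymphocyte sum also overlapped (351 to 441 and 306 to 363), with Cd4 and Ms4a1 lower. Both calls were lost in some fits without 1 liver (limma adjusted p up to 0.118 for Cd4 and 0.0515 for Ms4a1). Of the 7 hepatocyte markers 2 fell, Hnf4a (-0.31) and Serpina1c (-0.16). With arrays centred on the hybridization controls, 2 hepatocyte markers rose and 0 fell, and 0 lymphocyte or endothelial markers fell. Hba-a1 of the erythroid list lay at the floor in all 20 livers, and the remaining markers lay above it in at least some. The part of these cell types in the rise of the members was not tested.

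The D-type cyclins, which open the way out of G1, did not rise. Ccnd1, the cyclin most tied to hepatocyte cell cycle entry, read 1208, 1096, 955, 1165 and 1133 in wild-type VLF livers and 909, 970, 990, 1432 and 1113 in knockout VLF livers. On chow it read 942, 801, 933, 456 and 559 in wild type and 735, 740, 569, 1314 and 1197 in the knockout. The VLF groups overlapped throughout, and the change was -0.05 ± 0.23 (adjusted p = 1). Its other probe sets gave -0.15 ± 0.22 and -0.08 ± 0.22, and neither passed the test.

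Ccnd2, the second D-type cyclin, fell in the knockout on the VLF diet. It read 158, 184, 164, 152 and 179 in wild-type VLF livers and 74, 98.9, 93.7, 98.1 and 109 in knockout VLF livers. On chow the values were 165, 147, 138, 152 and 184 in wild type and 131, 144, 90, 134 and 153 in the knockout. Every knockout VLF liver lay below every wild-type liver of either diet. The fall was 1.78-fold (log2 change -0.83 ± 0.13, adjusted p = 3.75e-05), and 4 of its 6 other probe sets fell as well, the remaining 2 being at the floor in all livers.

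Ccnd3, the third, read 311, 303, 331, 329 and 315 in wild-type VLF livers and 289, 243, 260, 311 and 288 in knockout VLF livers, against 303, 316, 296, 315 and 346 and 308, 343, 346, 377 and 326 on chow. The groups touched, and the change of -0.20 ± 0.07 (adjusted p = 0.0261) reversed to 0.01 with median scaling alone and to 0.20 with arrays centred on hybridization controls. The call was also lost without knockout VLF liver 2 or 3 or wild-type VLF liver 3 or 4, with an adjusted p of up to 0.0752.

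Among the G1/S regulators Cdt1, which loads the MCM helicase onto origins, rose 3.68-fold. It read 72.3, 77.2, 58.4, 130 and 128 in wild-type VLF livers and 306, 273, 313, 460 and 305 in knockout VLF livers. On chow it read 144, 142, 139, 101 and 119 in wild type and 125, 108, 170, 145 and 131 in the knockout. The knockout VLF livers stood above all 15 others, and the wild-type VLF livers split into 3 low and 2 that matched chow. The log2 change was 1.88 ± 0.20 (adjusted p = 6.9e-07).

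The other 5 genes of the G1/S class did not pass the test on the VLF diet. Cyclin E2 (Ccne2) lay at the floor of 16 in all 15 livers of the other groups and in knockout VLF livers 1 and 2, and read 16.4, 27 and 24.8 in knockout livers 3, 4 and 5 (change 0.28 ± 0.11, adjusted p = 0.064). Cyclin E1 (Ccne1) read 61.3, 60.4, 56.8, 50.8 and 64.9 in wild-type VLF livers and 101, 71.2, 64, 68.8 and 54.8 in knockout VLF livers. On chow it stayed between 53.9 and 65.1 in wild type and between 52.9 and 63.5 in the knockout. Knockout VLF liver 1 stood out and liver 5 fell within the wild-type range (change 0.27 ± 0.12, adjusted p = 0.0883).

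E2f1, an activator of G1/S genes, changed by 0.25 ± 0.12 (adjusted p = 0.122) on its brightest probe set, and a second probe set fell by 0.25 ± 0.08 (adjusted p = 0.0161). Gmnn, the geminin that blocks CDT1, changed by 0.20 ± 0.15 (adjusted p = 0.365). Cdc6, the other helicase loader, lay at the floor in 19 of 20 livers and read 18.7 in knockout VLF liver 4 (change 0.04 ± 0.04, adjusted p = 0.436). The lone E2F word before the start of Cdc6 therefore belongs to a gene that these arrays hardly read. E2f1, Ccne1 and Ccne2 each passed the test without 1 of the knockout VLF livers: E2f1 (adjusted p = 0.0352) and Ccne1 (0.0169) without liver 5, and Ccne2 without liver 1, 2 or 3 (0.0205 to 0.0321). Ccne1 also passed with median scaling alone (0.043) and with hybridization controls (0.0165), Gmnn with hybridization controls (0.58, 0.0147), and Cdc6 and Ccne2 with a floor of 4 (0.00364 and 0.00172).

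**Figure D2:**
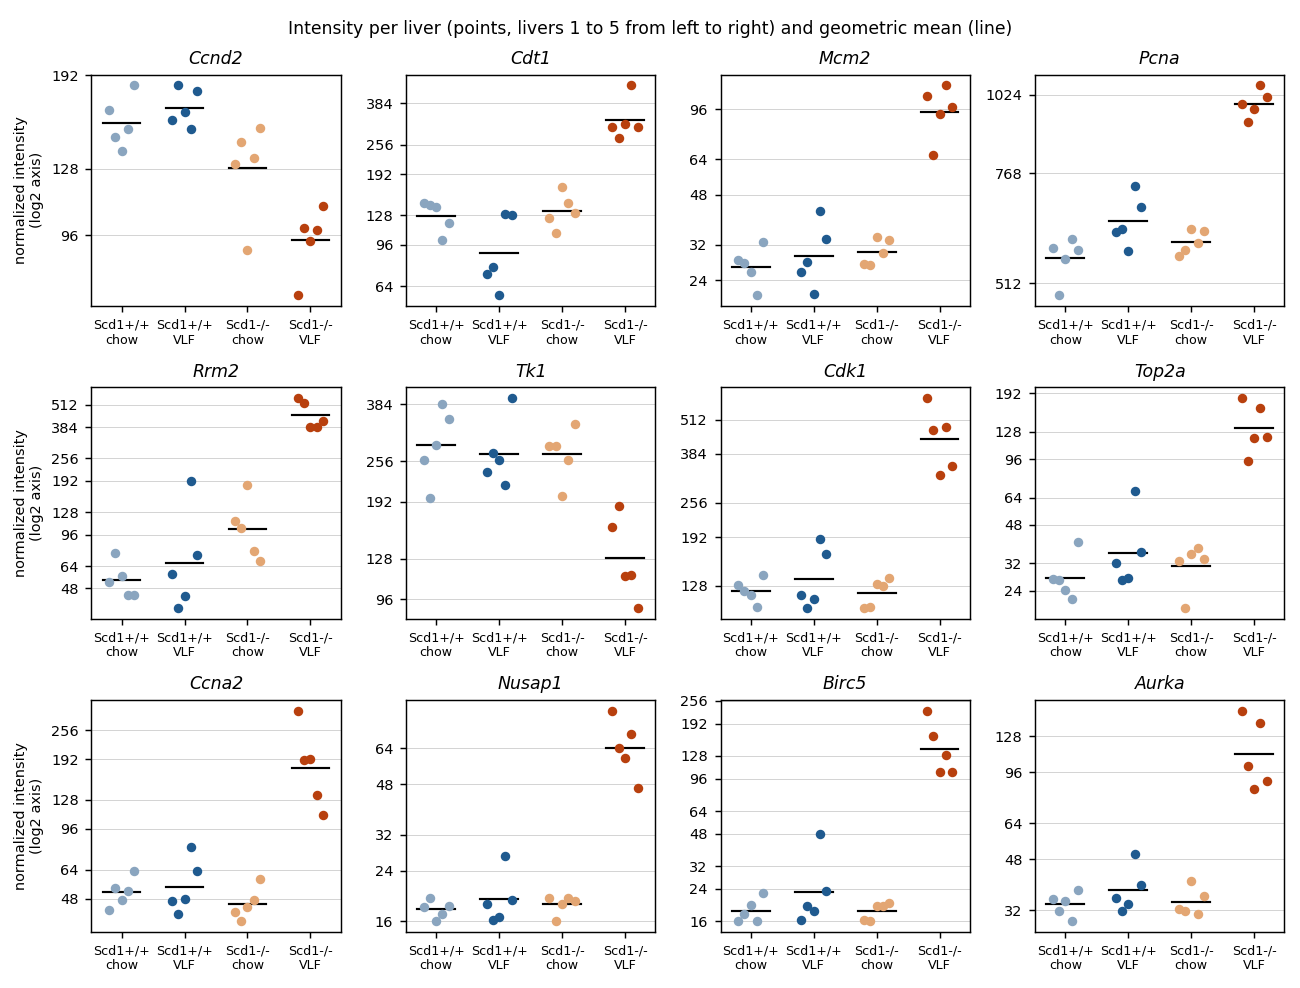
Normalized intensity (log2 axis) of 12 members in each of the 20 livers, with the line at the geometric mean of each group of 5. Knockout VLF livers lie above all others for 10 of the genes and below the wild-type livers for Ccnd2 and Tk1; wild-type VLF liver 4 is the highest of its group for Mcm2, Rrm2, Cdk1 and Birc5.

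All 7 genes of the replicative helicase and its clamp rose. Mcm2, a helicase subunit, read 25.6, 27.8, 21.5, 42.1 and 33.4 in wild-type VLF livers and 107, 66.4, 92.2, 117 and 97.7 in knockout VLF livers. On chow it read 28.2, 27.6, 25.6, 21.2 and 32.8 in wild type and 27.3, 27.2, 34, 29.8 and 33.3 in the knockout. No knockout VLF liver came near another group, and the rise was 3.22-fold (log2 change 1.69 ± 0.17, adjusted p = 2.36e-07). The other Mcm2 probe set rose less, 1.46-fold (0.55 ± 0.12, limma adjusted p = 0.00121).

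Pcna, the sliding clamp of DNA polymerases, is also used in DNA repair. It read 619, 626, 578, 733 and 679 in wild-type VLF livers and 990, 926, 971, 1062 and 1016 in knockout VLF livers. On chow it read 584, 490, 560, 604 and 580 in wild type and 567, 579, 625, 594 and 621 in the knockout. The groups did not overlap, and the rise was 1.54-fold (0.62 ± 0.06, adjusted p = 3.57e-07). It was smaller than that of the brightest Mcm2 probe set and larger than the 0.55 of the other one.

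Mcm7, another helicase subunit, read 189, 188, 162, 216 and 243 in wild-type VLF livers and 406, 443, 324, 417 and 362 in knockout VLF livers. Chow values were 224, 237, 208, 152 and 250 in wild type and 201, 170, 226, 215 and 218 in the knockout. It rose 1.96-fold (0.97 ± 0.13, adjusted p = 9.3e-06), again with no overlap. The remaining subunits rose to different degrees: Mcm6 by 1.62 ± 0.24, Mcm5 by 1.55 ± 0.21 and Mcm4 by 0.71 ± 0.14, each without overlap. On its brightest probe set Mcm3 rose by 0.37 ± 0.13 (adjusted p = 0.0303), with overlapping groups. That call was lost without knockout VLF liver 1 or 5 or wild-type VLF liver 4 or 5 (adjusted p up to 0.0885). Other Mcm3 probe sets rose by 1.15 ± 0.15 (limma adjusted p = 4.53e-06), 0.73 ± 0.11 (3.93e-05) and 0.42 ± 0.11 (0.00508). The dimmest one did not pass the test (0.10 ± 0.07, adjusted p = 0.305). Mcm5 and Mcm6, whose start regions are printed above, thus rose about as far as Mcm2 did on its brightest probe set. The Mcm2 window held a CHR word and no E2F word.

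The genes of deoxynucleotide supply split. Rrm2, the S-phase subunit of ribonucleotide reductase, had the highest log2 change of the 40 members on the probe sets used. It read 57.9, 37.1, 43.2, 191 and 73.3 in wild-type VLF livers and 559, 523, 383, 386 and 415 in knockout VLF livers. Chow values were 51.8, 75.9, 56.6, 44.3 and 44.3 in wild type and 114, 104, 183, 77.7 and 68.1 in the knockout. It rose 6.73-fold on the VLF diet (2.75 ± 0.35, adjusted p = 4.27e-06), and wild-type VLF liver 4 stood apart from its group. The probe set used carries a suffix that marks possible cross-hybridization. Its other probe sets rose by 2.45 ± 0.29 (limma adjusted p = 1.92e-06) and 1.64 ± 0.20 (2.11e-06), both below the 2.60 of Birc5.

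Rrm1, the large reductase subunit, read 84.3, 66.2, 86.7, 98 and 95.5 in wild-type VLF livers and 195, 164, 116, 125 and 112 in knockout VLF livers, beside 88.1, 75.3, 72.9, 84.7 and 121 and 95.6, 91.3, 99.6, 85.4 and 85.5 on chow. It rose 1.63-fold (0.70 ± 0.16, adjusted p = 0.00153), with the VLF groups apart but wild-type chow liver 5 within the knockout range. Tyms, the thymidylate synthase, lay at the floor in 18 of 20 livers and never exceeded 17.3, so its change of -0.01 ± 0.03 (adjusted p = 0.879) carries no level.

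Tk1, the cytosolic thymidine kinase that salvages thymidine, fell where both reductase subunits rose. It read 238, 271, 258, 216 and 402 in wild-type VLF livers and 161, 186, 113, 114 and 90 in knockout VLF livers. Chow values were 259, 197, 287, 384 and 346 in wild type and 286, 286, 200, 259 and 335 in the knockout. All 5 knockout VLF livers were below the other 15 (2.11-fold lower, -1.07 ± 0.21, adjusted p = 0.000625). Erythroid precursor markers moved the same way: 3 of 4 fell, where 23% of all genes were called down. Alas2 fell by 1.01 ± 0.24, Klf1 by 0.92 ± 0.15 and Epb42 by 0.23 on the log2 scale. The summed intensity of the list was 369 to 581 in wild-type and 194 to 282 in knockout VLF livers. The Epb42 call was lost with hybridization controls (-0.06) and without any 1 of 8 VLF livers (adjusted p up to 0.09). Their part in the fall of Tk1 was not tested.

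The S and G2 genes had a median change of 1.68. Cdk1, the kinase of mitotic entry, read 118, 106, 115, 189 and 167 in wild-type VLF livers and 613, 471, 322, 481 and 346 in knockout VLF livers. On chow it read 129, 122, 118, 107 and 140 in wild type and 106, 107, 130, 128 and 137 in the knockout. It rose 3.21-fold (1.68 ± 0.17, adjusted p = 3.38e-07), and the highest of the 15 other livers read 189.

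Top2a, the topoisomerase that untangles replicated chromosomes, read 32.2, 26.7, 27.4, 68.7 and 35.9 in wild-type VLF livers and 183, 94, 120, 164 and 121 in knockout VLF livers. Chow values were 27.2, 26.7, 24.1, 22 and 40 in wild type and 32.9, 19.9, 35.1, 37.6 and 33.4 in the knockout. It rose 3.71-fold (1.89 ± 0.25, adjusted p = 7.84e-06). A pair of dimmer Top2a probe sets, at 18.7 to 25.3 in every group mean, gave 0.09 ± 0.08 and -0.17 ± 0.07 and did not pass the test (adjusted p = 0.539 and 0.0822).

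Ccna2, cyclin A2, which partners CDK2 in S phase and CDK1 in G2, read 47, 41.2, 47.7, 79.8 and 62.9 in wild-type VLF livers and 310, 190, 193, 135 and 110 in knockout VLF livers. On chow it read 43.1, 53.2, 47.6, 51.9 and 63.3 in wild type and 41.9, 38.4, 44, 47.6 and 58.4 in the knockout. It rose 3.25-fold (1.70 ± 0.23, adjusted p = 7.93e-06), and knockout VLF liver 1 was the highest. Mki67, the antigen behind the Ki-67 proliferation stain, rose by 1.67 ± 0.25 and Cks2, a CDK subunit, by 0.67 ± 0.14, both without overlap.

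Foxm1, the activator of G2 and mitotic genes, did not rise with them on its brightest probe set. It read 107, 101, 116, 99.4 and 118 in wild-type VLF livers and 88.2, 111, 83.8, 86.8 and 96 in knockout VLF livers, a change of -0.22 ± 0.09 (adjusted p = 0.062). It passed as a fall in 6 settings, among them array weights (adjusted p = 0.0145) and leaving out knockout VLF liver 2 (0.0126), wild-type VLF liver 4 (0.046) or wild-type chow liver 1 (0.0379) or 5 (0.0472). The second probe set gave -0.21 ± 0.10 (adjusted p = 0.143). Another, dimmer one read 20, 19, 18.4, 19.9 and 19.3 in wild-type VLF livers and 31.1, 26.4, 23.3, 25.7 and 20.5 in knockout VLF livers, a rise of 0.38 ± 0.08 (adjusted p = 0.000813). The remaining one lay at the floor in all livers. The probe sets of Foxm1 thus disagree, and no direction is given for the gene.

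Of the 14 mitotic genes read, 13 rose, with a median change of 1.16 over the class. Nusap1, a spindle-associated protein, had the smallest adjusted p of all members. It read 18.3, 16.1, 16.6, 26.9 and 19 in wild-type VLF livers and 86.4, 63.9, 59.2, 71.8 and 46.4 in knockout VLF livers. Chow values were 17.9, 19.3, 16, 17 and 18.1 in wild type and 19.3, 16, 18.4, 19.3 and 18.8 in the knockout. The rise was 3.37-fold (1.75 ± 0.14, adjusted p = 1.75e-08), from values close to the floor. With a floor of 64 the call was lost (0.12, adjusted p = 0.225). The other Nusap1 probe set, with group means of 16.9 to 17.8, gave -0.08 ± 0.05 (adjusted p = 0.216).

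Birc5 encodes survivin, a subunit of the chromosomal passenger complex. It read 16.3, 19.3, 18.1, 48 and 23.4 in wild-type VLF livers and 226, 165, 104, 130 and 105 in knockout VLF livers. Chow values were 16, 17.5, 19.7, 16 and 22.8 in wild type and 16.3, 16, 19.4, 19.4 and 20.2 in the knockout. Outside the knockout VLF group, wild-type VLF liver 4 was the highest and the next read 23.4. The rise was 6.08-fold (2.60 ± 0.25, adjusted p = 1.37e-07).

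Aurka, the centrosome kinase, read 35.3, 31.8, 33.5, 49.9 and 39.2 in wild-type VLF livers and 157, 101, 84.2, 142 and 89.7 in knockout VLF livers. Chow values were 35.1, 31.8, 34.3, 29.3 and 37.6 in wild type and 32.3, 31.7, 40.4, 31 and 35.8 in the knockout. It rose 2.97-fold (1.57 ± 0.16, adjusted p = 2.62e-07), with no overlap.

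The other mitotic genes ranged from a large to a marginal rise. Ccnb2, cyclin B2, rose 5.28-fold (2.40 ± 0.35) and Ube2c, which ubiquitinates cyclin B with the anaphase-promoting complex, rose 4.71-fold (2.23 ± 0.26). Cenpa, the centromeric histone, rose by 1.30 ± 0.21, the spindle midzone protein gene Prc1 by 1.23 ± 0.15, Plk1 by 1.08 ± 0.18 and Aurkb, a mitotic kinase gene, by 0.97 ± 0.12. The Cenpa call rests on 1 probe set: a dimmer one gave 0.22 (adjusted p = 0.0731) and the last lay at the floor. Kif20a, a cytokinesis motor, lay at the floor in all 15 other livers and read 52.8, 26.6, 19.7, 20.9 and 24.6 in knockout VLF livers, so it was at least 1.69-fold higher (adjusted p = 0.0019). Bub1, a spindle checkpoint kinase, lay at the floor in the same 15 livers and reached 26.1 (adjusted p = 0.012).

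Bub1b, its partner BUBR1, rose by 0.25 ± 0.08 (adjusted p = 0.0211) and Kif11, the spindle motor Eg5, by 0.38 ± 0.14 (adjusted p = 0.0382). The call for Bub1b was lost without knockout VLF liver 1 or 4 or wild-type VLF liver 2 (adjusted p up to 0.066), and that for Kif11 without knockout VLF liver 1, 2, 3 or 4 or wild-type VLF liver 1, 3 or 5 (up to 0.103).

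Cdc20, the activator of the anaphase-promoting complex, turned on the choice of probe set. Its brightest one, which like the third carries a suffix that marks possible cross-hybridization, read 212, 187, 197, 186 and 216 in wild-type VLF livers and 192, 247, 172, 207 and 175 in knockout VLF livers (-0.01 ± 0.12, adjusted p = 1). The second read 74.2, 62.6, 62.5, 132 and 92.6 in wild-type VLF livers and 333, 245, 203, 359 and 203 in knockout VLF livers, a rise of 3.21-fold (1.68 ± 0.19, adjusted p = 1.35e-06). The third rose 5.91-fold (2.56 ± 0.38, adjusted p = 2.98e-05). Both of these kept the VLF groups apart, as most of the mitotic class did. Cdc20 is therefore counted as not called by the rule, although 2 of its 3 probe sets rose.

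**Figure D3:**
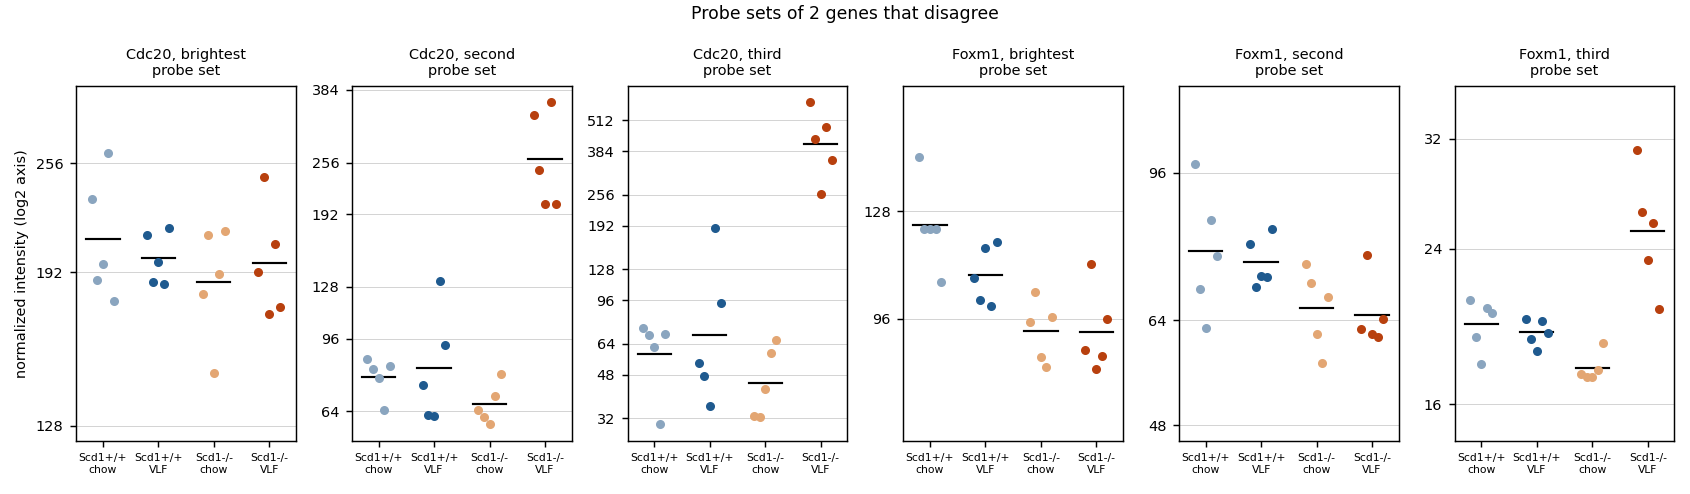
Normalized intensity (log2 axis) of the 3 probe sets of Cdc20 and the 3 of Foxm1 above the floor, 20 livers each, with the line at the geometric mean. For Cdc20 the other 2 probe sets separate the knockout VLF livers from all others and the brightest one does not; for Foxm1 only the third, dimmest one is higher in knockout VLF livers.

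Over all members, 28 had more than 1 probe set. Of 22 called members with others, 16 had another probe set called the same way and 0 had one called the opposite way. Besides Cdc20 and Foxm1, E2f1 was an uncalled member with another probe set called, making 3 in all.

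On chow, 0 of the 40 members rose in Scd1-/- livers and 1 fell, where 2.95% of all genes were called and 1.71% were called down. Foxm1, on its brightest probe set, was that gene. It read 148, 122, 122, 122 and 106 in wild-type chow livers and 95.1, 103, 86.5, 84.3 and 96.3 in knockout chow livers, 1.33-fold lower without overlap (-0.41 ± 0.09, adjusted p = 0.0326). The call was lost without wild-type chow liver 1 or 4 or knockout chow liver 3 or 4 (adjusted p up to 0.0906). Bub1b also lay wholly below wild type, where 3.68% of genes did so, but its change of -0.29 ± 0.08 did not pass the test (adjusted p = 0.0608). Rrm2 was higher by 0.94 ± 0.35 (adjusted p = 0.121), and it passed when wild-type VLF liver 4, which enters this comparison only through the pooled spread, was left out (adjusted p = 0.0414). The median member change on chow was 0.00.

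The VLF diet alone called 0 of the 40 members in Scd1+/+ livers, where it called 1.57% of all genes. An unadjusted p under 0.05 (limma) was met by 6 of the 40 members. Among all 18193 genes 2689 met it, nearly the same share. Ccnd1 was the only member whose groups did not overlap, as in 1.85% of all genes in that direction, and its change was 0.64 ± 0.23 (adjusted p = 0.212). Mcm5 was higher by 0.61 ± 0.21 (adjusted p = 0.201) and Mcm6 by 0.55 ± 0.24 (adjusted p = 0.372), while Cdt1 was lower by 0.53 ± 0.20 on the log2 scale (adjusted p = 0.272). Mcm5 passed without wild-type chow liver 5 (adjusted p = 0.0447).

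In Scd1-/- livers the VLF diet raised 28 members and lowered 3 against chow, where 34.8% of all genes were called, 17.1% up and 17.7% down. With hybridization controls, which moved the median of all genes to 0.27, the split was 33 up and 1 down: the Ccnd2 call was lost (-0.45 became -0.06, adjusted p = 0.879) and Ccnd3 turned to 0.13. This comparison shares the knockout VLF livers with the genotype comparison on that diet, so the 2 counts are not independent. Side by side, Birc5 changed by 2.60 against wild type and 2.94 against knockout chow, Ube2c by 2.23 and 2.88, Rrm2 by 2.75 and 2.12, Pcna by 0.62 and 0.73, and Tk1 by -1.07 and -1.07. E2f1 passed here (0.37 ± 0.12, adjusted p = 0.0262) and Mcm3 did not (0.25 ± 0.13, adjusted p = 0.192). With the mean of all its probe sets Mcm3 did pass (0.52, limma adjusted p = 5.76e-06). The E2f1 call was lost without knockout chow liver 3 or 5 (adjusted p up to 0.0583). It was also lost with the mean of all probe sets (0.10, adjusted p = 0.173), with a floor of 64 (0.00) and with only the groups compared (0.0986).

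The genotype difference itself differed between the diets in 26 members, 23 upward and 3 downward, by the interaction term of the same fit, where 24.2% of all genes were called, 12.1% in each direction. With arrays centred on the hybridization controls the split was 28 upward and 0 downward. Birc5 had the highest interaction (2.61 ± 0.35, adjusted p = 2.36e-05), followed by Ccnb2 (2.46 ± 0.49) and Ube2c (2.42 ± 0.37). By class, the interaction was called in 11 of 14 mitotic, 5 of 6 S/G2 and 5 of 7 MCM and PCNA genes, and in Cdt1 and Rrm2. The downward ones were Ccnd2 (-0.55 ± 0.18, and -0.20 with hybridization controls), Ccnd3 (-0.30 ± 0.09, which read 0.03 when arrays were centred on hybridization controls) and Tk1 (-0.98 ± 0.30). Members called on the VLF diet without a called interaction were Mcm3, Mcm4, Rrm1, Bub1 and Kif11. Their difference between diets was therefore not shown on the probe sets used. With the mean of all its probe sets, Mcm3 passed for the interaction (0.42, limma adjusted p = 0.00289). Leaving out 1 liver removed the interaction call of Ccnd2 in 12 cases (adjusted p up to 0.0781), Kif20a in 14 (0.0536), Tk1 in 6 (0.0571) and Ccnd3 in 3 (0.0524).

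**Figure D4:**
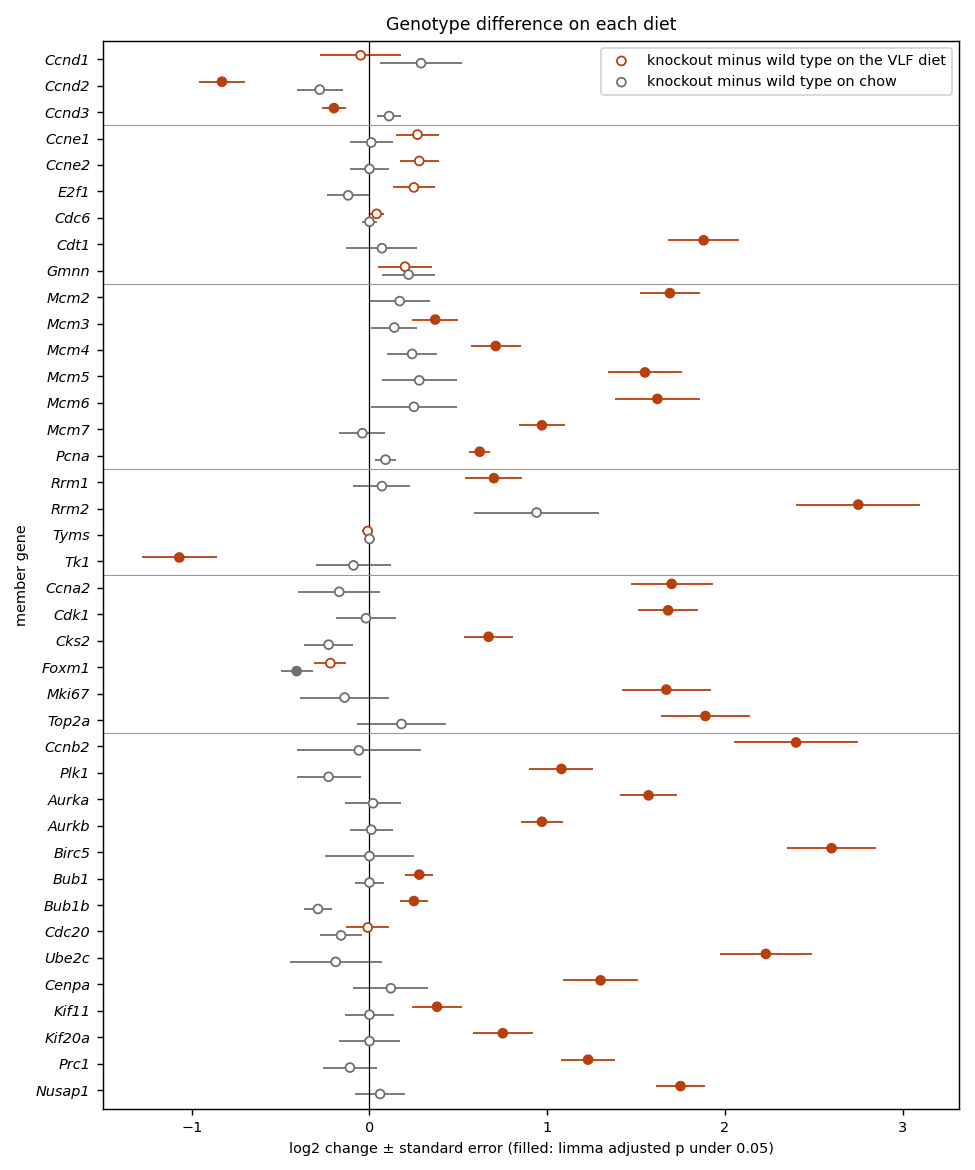
Log2 change of Scd1-/- against Scd1+/+ livers for each of the 40 members on the VLF diet (red) and on chow (grey), with standard errors; filled points have an adjusted p under 0.05. The red points of most MCM, S/G2 and mitotic genes lie right of 0 and the grey points near 0, with Foxm1 the only filled grey point.

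Livers of the same group differed in how far these genes had risen. Wild-type VLF liver 4 was the highest of its group for 23 of the 35 members that lay above the floor in all 5 livers, and knockout VLF liver 1 for 19 of 36. Knockout VLF livers 3 and 5 were the lowest for 15 and 13 members. Mean class levels showed this too: over the 14 mitotic genes, knockout VLF livers 1 to 5 stood 1.78, 1.35, 1.03, 1.38 and 0.99 above the wild-type chow mean (log2). Wild-type VLF livers 1 to 5 stood at -0.04, -0.07, -0.08, 0.52 and 0.20. The MCM and PCNA class was more even in the knockout, at 1.43, 1.31, 1.17, 1.44 and 1.19.

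In wild-type VLF liver 4, Ccnb2 read 112, Mki67 112 and Ube2c 82, against 23.3 to 59.4, 42.5 to 59.3 and 31.2 to 51.1 in the other 4 livers. It remained below the knockout VLF livers for each of these genes. Without that liver and knockout VLF liver 1, a setting chosen after the values were seen, 26 members rose and 2 fell on the VLF diet.

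The wider machinery of the cycle, 105 genes read in 6 lists, moved less evenly on the same comparison. Of these, 48 rose, 12 fell and 45 were not called, with a median of 0.22. Over all genes 19.2% were called up and 23% down, a larger share down than in these lists. With arrays centred on the hybridization controls the split was 65 up and 3 down. Genes of these lists, like the cell type markers, were read from the brightest probe set only, and their other probe sets were not compared. The p21 gene Cdkn1a, which inhibits CDK complexes and binds PCNA, had the highest change in these lists. It averaged 68.6 ± 13.3 in wild-type VLF livers and 1020 ± 210 in knockout VLF livers (SD, n = 5 livers each), beside 76.2 ± 29.8 and 98.8 ± 64 on chow, a change of 3.89 ± 0.29 (adjusted p = 6.02e-09). Of the other CDK inhibitors, Cdkn1b (0.20 ± 0.07) and Cdkn1c (0.22 ± 0.06) rose, and Cdkn2a (-0.03), Cdkn2b (0.13), Cdkn2c (-0.12) and Cdkn2d (-0.10) did not pass the test. That made 3 of 7 CDK inhibitors called, a share near the 42.1% over all genes. The Cdkn1b call was lost without any 1 of knockout VLF livers 1 to 3, wild-type VLF livers 1 to 3 or wild-type chow liver 3 (adjusted p up to 0.124). Both the Cdkn1b call (adjusted p = 0.0595) and the Cdkn1c call (change 0.00) were lost with a floor of 64.

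Among the 20 genes of the G1 CDKs, the RB family, the E2F factors and MuvB, 5 rose, 3 fell and 12 were not called, a share of calls near the 42.1% over all genes. Cdk6, a partner of the D-type cyclins, rose by 1.01 ± 0.12. The pocket proteins parted: Rbl1, which encodes p107, rose by 1.30 ± 0.16, and Rbl2, which encodes the quiescence-associated p130, fell by 0.71 ± 0.11 on the log2 scale. The rise of Rbl1 lay in dim values, and with a floor of 64 it read 0.00 and lost its call. Tfdp2, an E2F partner, fell by 0.71 ± 0.06, and the MuvB subunit gene Lin37 fell by 0.46 ± 0.12, a call lost with median scaling (adjusted p = 0.0953) and with hybridization controls (0.884). Rbl2 was the 1 gene of this list called on chow, where it rose by 0.48 ± 0.11 (adjusted p = 0.0383). E2f1 and Foxm1, the members that activate these targets, were not called up on their brightest probe sets.

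Of 31 origin and fork proteins 12 rose, 7 fell and 12 were not called, beside 19.2% of all genes called up and 23% down, so the share that fell was that of all genes. Dbf4, the activator of the CDC7 kinase that fires origins, rose by 2.48 ± 0.21, Gins2, a subunit of the active helicase, by 1.11 ± 0.11 and Rpa2, of the single-strand binding complex, by 0.98 ± 0.11. Mcm10, a replication initiation factor, averaged 450 ± 60.2 in wild-type and 147 ± 28.5 in knockout VLF livers and fell by 1.63 ± 0.19 (adjusted p = 2.14e-06), against the direction of the MCM helicase members. The others that fell were Orc5 (-0.69 ± 0.12), Rpa3 (-0.43 ± 0.12), Orc3 (-0.39 ± 0.10), Cdc7 (-0.34 ± 0.11), Orc1 (-0.33 ± 0.10) and Cdc45 (-0.23 ± 0.08). With hybridization controls the list read 17 up and 1 down, and the call was lost for Orc1, Orc3, Orc5, Cdc7 and Rpa3 (adjusted p of 0.141 to 1) and Cdc45 turned to 0.01. With median scaling it was lost for Orc3, Cdc45 and Rpa3 (0.0603 to 0.306). A floor of 64 ended the calls of the riser Rpa2 (0.05, adjusted p = 0.41) and of Orc1, Cdc7 and Cdc45, among others. Leaving out 1 liver ended the call for Cdc45 (knockout VLF liver 1, 3 or 4 or wild-type VLF liver 1, 2, 3 or 5, adjusted p up to 0.0951) and for Cdc7 (knockout VLF liver 1 or wild-type VLF liver 5, up to 0.0568).

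Of 9 checkpoint and CDC25 genes 4 rose and 0 fell, a share of calls near the 42.1% over all genes. The risers were the replication checkpoint kinase gene Chek1 (0.96 ± 0.11), the CDK-activating phosphatase genes Cdc25a (0.88 ± 0.14) and Cdc25c (0.46 ± 0.12), and Atr (0.65 ± 0.12). Atr, the sensor kinase, also rose on chow (0.48 ± 0.12, adjusted p = 0.0445). The other mitotic genes followed the mitotic members, with 20 of 30 rising, 1 falling and a median of 0.76. Over all genes 19.2% were called up and 23% down. Ect2, which drives cytokinesis, rose by 2.16 ± 0.20, the spindle checkpoint genes Mad2l1 by 1.64 ± 0.16 and Bub3 by 0.60 ± 0.07, and Cdca8, of the passenger complex, by 0.98 ± 0.11. Calls lost with a floor of 64 were those of Chek1 (0.09), Cdc25c (0.00), Cdca8 (0.06) and further risers of the mitotic list. Pttg1, the securin, fell by 0.19 ± 0.06 on the log2 scale, and its change read 0.03 with hybridization controls.

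Growth signals that reach hepatocytes gave 4 rises and 1 fall among 8 genes, beside 19.2% of all genes called up and 23% down. The transcription factor genes Myc and Jun, induced early in liver regeneration, rose by 2.33 ± 0.13 and 2.19 ± 0.20, and the EGF receptor ligand gene Hbegf rose by 1.54 ± 0.12. Met, the receptor of hepatocyte growth factor, fell by 0.55 ± 0.06 on the log2 scale, a call lost with hybridization controls (-0.18, adjusted p = 0.394).

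**Figure D5:**
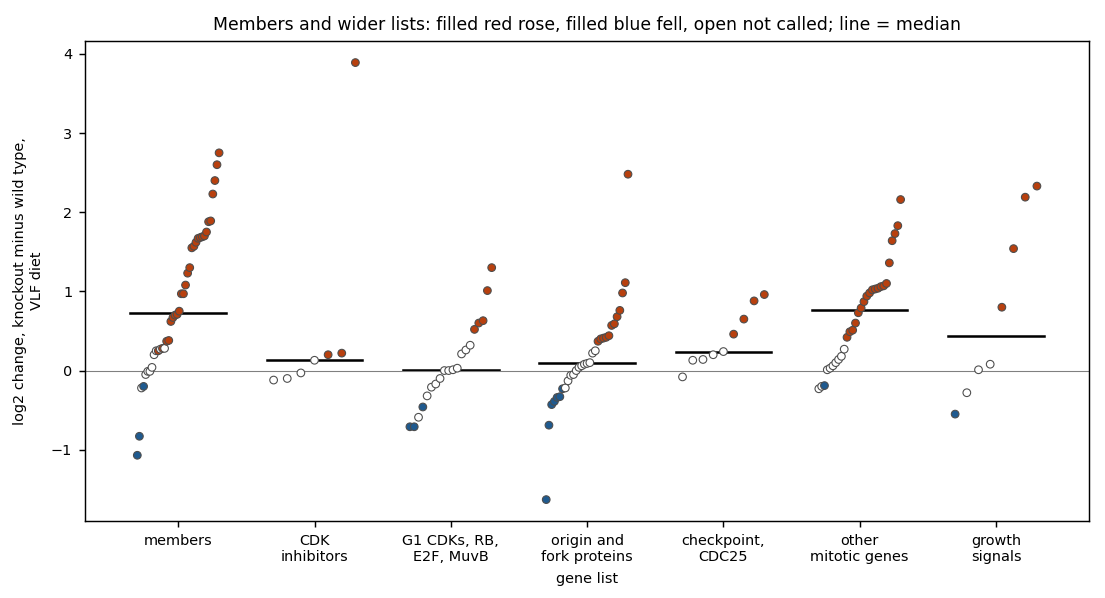
Log2 change of Scd1-/- against Scd1+/+ livers on the VLF diet for the 40 members and the 105 genes of the 6 wider lists, ordered by size within each list; red points rose, blue points fell, open points were not called, and the line is the list's median. The members and the other mitotic genes have the highest medians, 0.73 and 0.76, and Cdkn1a at 3.89 is the highest point.

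The rise was read against the start-region words as a description only. Of the 31 measured members with a RefSeq entry, 11 held a CHR word, and 10 of them rose on the VLF diet, the exception being Cdc20 by its brightest probe set. Of the 20 without one, 14 rose, 2 fell and 4 were not called. Of the 5 with an E2F word 4 rose, and Cdc6 was not called. Of 23 members with CCAAT 21 rose, 1 fell and 1 was not called, and of 8 without it 3 rose, 1 fell and 4 were not called. Cdt1, Birc5 and Nusap1 rose with none of the 3 words in the searched window, and Tk1 fell with none.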

How the data were processed

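Total RNA of 20 flash-frozen livers was hybridized as biotin-labelled cRNA to Affymetrix whole-genome mouse arrays, per the labels' protocols. The authors deposited 1 linear intensity per probe set and array; MAS5 and RMA are named in the submitters' processing notes, and the notes do not say which made the values. Arrays were brought to 1 median, values below 16 set to 16, then quantile normalization and log2 applied. Fold changes were computed from these log2 values of the deposited intensities. Precision is limited by how many arrays there are.

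Of 45101 probe sets, 64 controls were left out and 45037 tested with limma 3.58.1 in R 4.3.3, as group means over all 20 arrays (16 residual degrees of freedom), with Benjamini-Hochberg adjustment over all probe sets. The 9083 at the floor everywhere counted as not called and stayed out of the variance model. Single-gene probe sets numbered 34945; 932 named several genes and 9160 none. Symbols were updated through RefSeq (GRCm38.p6). A gene was called at an adjusted p under 0.05. The scripts were checked on simulated data.

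Values per liver were given for up to 3 members of each class with the smallest adjusted p on the VLF diet, any called against most of its class and any called on chow or for the diet in wild type. Every member not called was named, and from each wider list up to 4 called genes, those called against most of the list and all CDK inhibitors. Other names and values, among them the genes with printed sequences, were chosen after their values were seen. The members and lists were chosen with earlier results of these data known. Liver numbers did not pair arrays: of 30 same-number pairs 6 correlated above 0.1 (median -0.00516). Alternatives were other scalings, floors, filters, probe set rules, designs, thresholds and leaving out each liver. No batch label was used.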

Additional observations from a re-analysis of the deposited data

Results flagged for a closer look

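In 5 of 135 sets of 5 livers, 1 liver lay far from the others by Dixon's criterion, which chance meets in about 5% of sets. Ccnd2 read 90 in knockout chow liver 3, with the next at 131. Cdt1 read 460 in knockout VLF liver 4, with the next at 313. Gmnn read 119 in wild-type VLF liver 2, with the next at 165. Mcm4 read 68.5 in wild-type VLF liver 4, with the next at 54.5. Top2a read 19.9 in knockout chow liver 2, with the next at 32.9.

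The genotype effect differed between diets in 26 members by the interaction term (limma, adjusted p under 0.05), given here as the log2 effect on the VLF diet minus that on chow. In G1 and G1/S genes it was -0.55 for Ccnd2, -0.30 for Ccnd3 and 1.81 for Cdt1. In the helicase and clamp it was 1.52 for Mcm2, 1.27 for Mcm5, 1.37 for Mcm6, 1.01 for Mcm7 and 0.54 for Pcna. In deoxynucleotide supply it was 1.81 for Rrm2 and -0.98 for Tk1. In S/G2 genes it was 1.87 for Ccna2, 1.71 for Cdk1, 0.89 for Cks2, 1.81 for Mki67 and 1.71 for Top2a. In mitotic genes it was 2.46 for Ccnb2, 1.31 for Plk1, 1.55 for Aurka, 0.96 for Aurkb, 2.61 for Birc5 and 0.54 for Bub1b. It was 2.42 for Ube2c, 1.18 for Cenpa, 0.75 for Kif20a, 1.35 for Prc1 and 1.70 for Nusap1.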

How the results depend on the processing

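Over the 40 members, the 5 comparisons and all settings, 6224 gene values kept their side of the threshold and, where called, their direction; 128 lost the call, 64 gained it and 4 called values reversed. All 4 reversals were Ccnd3: 0.01 with median scaling and 0.20 with hybridization controls (knockout against wild type on the VLF diet), 0.13 (VLF diet in the knockout) and 0.03 (interaction), both with hybridization controls, which moved the median of all genes to 0.10, 0.27 and 0.29. The cause was not tested. With only probe sets of mean log2 of at least 6, which left 18 members, 15 were called for genotype on the VLF diet, 14 for the diet in the knockout and 14 for the interaction. On chow the count was 2 with median scaling and with the 2 high livers left out, and 0 with hybridization controls, with the mean of all probe sets, with only the groups compared and at an adjusted p under 0.01. Leaving out 1 liver gave 29 to 32 calls for genotype on the VLF diet, 0 to 2 on chow, 0 to 1 for the diet in wild type, 30 to 32 in the knockout and 23 to 27 for the interaction. With the replicate number as a block, 30, 1, 0, 31 and 25 members were called in these comparisons; numbers do not pair the livers, 2 of 20 arrays correlating best with their own number. A floor of 64 left 20 risers and 3 fallers on the VLF diet. Members near the floor of 16 carry little level.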
